A study of Drosophila melanogaster with 6 samples.

Results

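Neuropeptides and peptide hormones are cut from larger precursor proteins in neurons, in enteroendocrine cells of the gut and in glands such as the corpora cardiaca, stored in dense core vesicles and released to act mostly on G protein-coupled receptors. In the larva they set feeding, the release of stored fat and sugar, water balance and the timing of moults and of metamorphosis. Here 35 Drosophila melanogaster genes of this kind, taken as a list of symbols, were followed through 6 RNA sequencing libraries of whole larvae. All 35 were found among the 16196 genes to which the deposited transcripts could be assigned. Of these, 34 reached a mean of 0.1 counts per 1000000 counts (CPM) over the 6 libraries, which was taken as measured, as did 13750 genes in all. The exception was Nplp3, which had 2 to 11 counts per library.

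All larvae were taken in the 3rd instar, on day 4 after egg laying, and each genotype had 1 library. The control, titled wild type in the labels, had the genotype Tublin Gal4/S-T, a driver of nearly ubiquitous activity over S-T. The other 5 genotypes, called C1 to C5, had Tublin Gal4 and UAS-C1, UAS-C2, UAS-C3, UAS-C4 or UAS-C5, each a different newt (Notophthalmus viridescens) gene carried as a single copy at an attP site. All 6 genotypes thus shared the driver, and no library carried the driver with an unrelated UAS insert. How many larvae of which sex made up a library is not stated in the labels.

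Libraries held 75131812 to 86975388 counts. Because there was 1 library per genotype, a difference between a candidate and the control compares 2 libraries and has no replicate check or p-value, and every interval of a ratio is an exact 95% binomial interval that covers counting error only. A call of higher or lower required a difference from the control of at least 2-fold in CPM scaled with TMM factors, and an interval of the ratio that excluded 1. RNA of 10 testis genes summed to 1221 CPM in the control and 2593 CPM in C4 but to between 3.08 and 9.39 CPM in C1, C2, C3 and C5. The libraries also differed in salivary gland, muscle and midgut RNA, with values given beside some of the results below. Markers of neurons, glia, muscle, fat body and midgut enterocytes were present in every library. The 16 neuron markers in the tables summed to 522 (C4) to 712 CPM (C2), and their median log2 ratio to the control lay between -0.10 (C4) and 0.24 (C1). The 8 enteroendocrine genes, of which 5 are peptide genes themselves, summed to 216 (C4) to 269.7 CPM (C1).

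The peptide genes varied between libraries about as much as the median gene, but few had a wide range. The highest library exceeded the lowest by at least 4-fold for 2 of 34 measured genes, Lst and Nplp2, whereas 34.1% of all measured genes had such a range. The threshold of 2-fold was reached by 20 of the 34 and by 54.9% of all genes. The median ratio of highest to lowest library was 2.20 for the peptide genes and 2.24 for all genes. The 14 peptide genes that stayed under 2-fold were AstA, Capa, Dh31, ETH, Eh, FMRFa, Hug, ITP, Lk, Nplp1, Orcokinin, SIFa, Tk and sNPF. Plain CPM and other scalings moved single ratios to the control by amounts given with the limits.

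**Figure D1:**
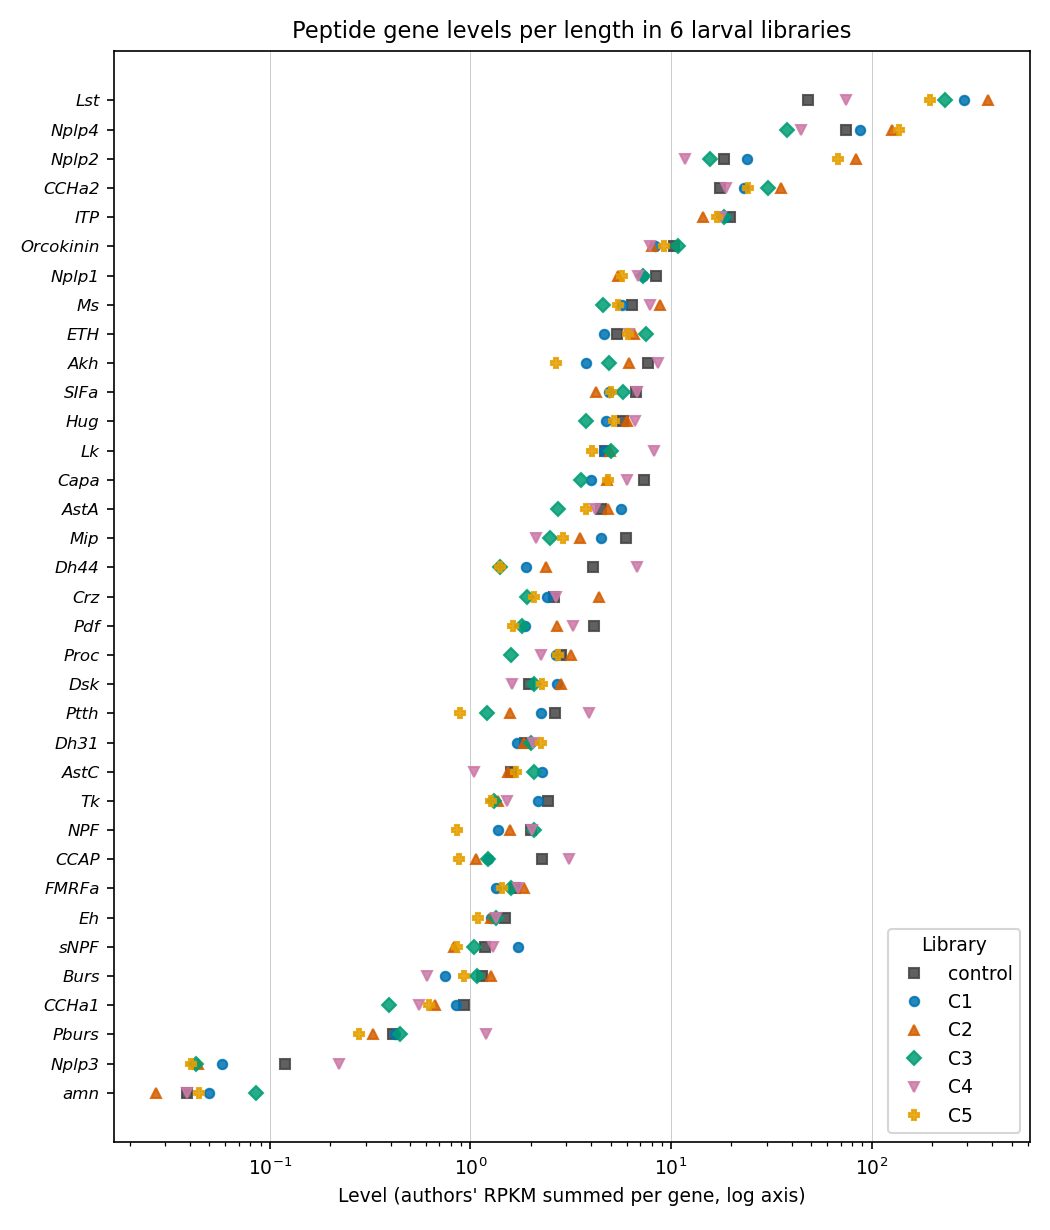
Levels of the 35 peptide genes, ordered by mean, as the authors' RPKM summed over the transcripts of a gene (log axis), with 1 symbol per library. Lst, Nplp4, Nplp2, CCHa2, ITP and Orcokinin had the highest means, and Lst reached 381 RPKM in C2 against 48.0 in the control.

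Levels of different genes were set against each other per length, with the authors' RPKM (reads per kilobase of transcript and 1000000 reads) summed per gene. Lst stood highest with a mean of 204 RPKM, followed by Nplp4 (84.96), Nplp2 (37.0), CCHa2 (24.9), ITP (17.7) and Orcokinin (9.10). Many peptides of few central neurons stood between 1 and 7 RPKM, such as Ms at 6.47, Hug at 5.36 and Pdf at 2.56. The lowest means were those of Pburs (0.512), Nplp3 (0.0877) and amn (0.0473). Lst alone supplied 19.6% of all peptide gene counts, scaled by TMM, in the control and 29.4% in C4, but 47.1% in C5, 56.5% in C3, 58.7% in C1 and 61.1% in C2. Without Lst, the other 34 peptide genes summed to between 189.8 CPM (C4) and 337 CPM (C2), with 223 CPM in the control.

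**Figure D2:**
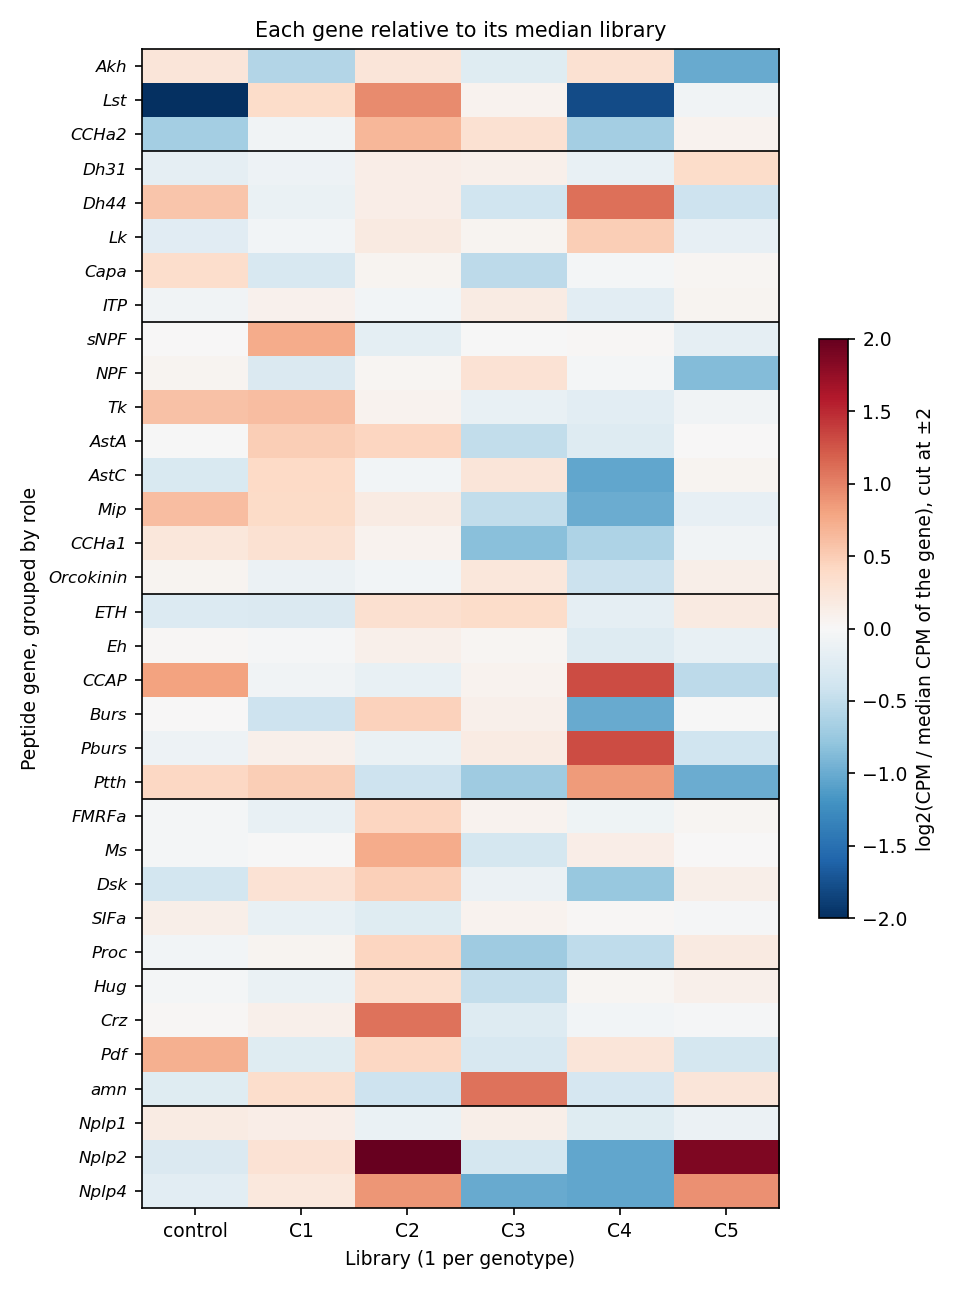
Log2 of the TMM-scaled CPM of each of the 34 measured peptide genes over that gene's median library, with colours cut at 2 in either direction. Rows are grouped by role, from metabolic hormones at the top to neuropeptide-like precursors at the bottom. Lst is lowest in the control and C4, and Nplp2 is highest in C2 and C5.

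The metabolic hormones were examined first. Limostatin, the product of Lst (chromosome 2R, 16574579 to 16576586, minus strand, Release 6), is a peptide of adult corpora cardiaca cells that lowers insulin release when food is scarce. Its RNA stood at 54.6 CPM (control), 356 (C1), 529 (C2), 288 (C3), 79.1 (C4) and 262 (C5). The control and C4 were low and the other 4 libraries high, with no value between 79.1 and 262 CPM. Against the control this was 6.52-fold in C1 (interval 6.33 to 6.72), 9.70-fold in C2 (9.41 to 9.99), 5.28-fold in C3 (5.12 to 5.44) and 4.80-fold in C5 (4.66 to 4.95). C4 exceeded the control as well, but by less than 2-fold (log2 ratio 0.54). In whole larvae, fewer cells of a type and less RNA per cell cannot be told apart. The libraries with little Lst RNA were those with testis RNA. Midgut enterocyte markers (11 genes) summed to 983 CPM (control), 735 (C4) and 1179 to 2439 in the remaining libraries, and fat body markers (7 genes) to 94152 CPM (control), 52331 (C4) and 96865 to 150420 elsewhere. The part of these in the Lst result was not tested.

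Adipokinetic hormone, the product of Akh (3L, 4141467 to 4142070), is the glucagon-like hormone of the corpora cardiaca that mobilises stored fat and sugar. The order of the libraries differed from that of Lst. It stood at 4.19 CPM (control), 2.35 (C1), 4.18 (C2), 3.00 (C3), 4.35 (C4) and 1.76 (C5), so that the control, C2 and C4 were alike and C5 was lowest. In C5 it was 2.38-fold lower than the control (interval of the ratio 0.342 to 0.513), and with plain CPM it was also 2.04-fold lower in C1. gl, another gene of corpora cardiaca cells, which photoreceptor cells also express, stayed between 9.96 and 13.4 CPM. The receptor gene AkhR, active in fat body, stood at 17.4 CPM (control), 25.002 (C1), 39.7 (C2), 29.9 (C3), 9.29 (C4) and 55.3 (C5). AkhR was highest in C5 and lowest in C4, as were the fat body markers (150420 and 52331 CPM summed over 7 genes), whose part in the AkhR levels was not tested.

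CCHamide-2, encoded by CCHa2 (3R, 13389059 to 13395197), is made in fat body and gut and acts on the insulin-producing cells of the brain. CCHa2 stood at 22.6 CPM (control), 34.1 (C1), 56.9 (C2), 44.5 (C3), 22.5 (C4) and 37.8 (C5). The control and C4 were again the lowest libraries, and C2, at 2.52 times the control (2.39 to 2.66), passed the 2-fold threshold. Its receptor gene CCHa2-R moved less, from 1.51 CPM in C2 to 2.68 in the control.

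**Figure D3:**
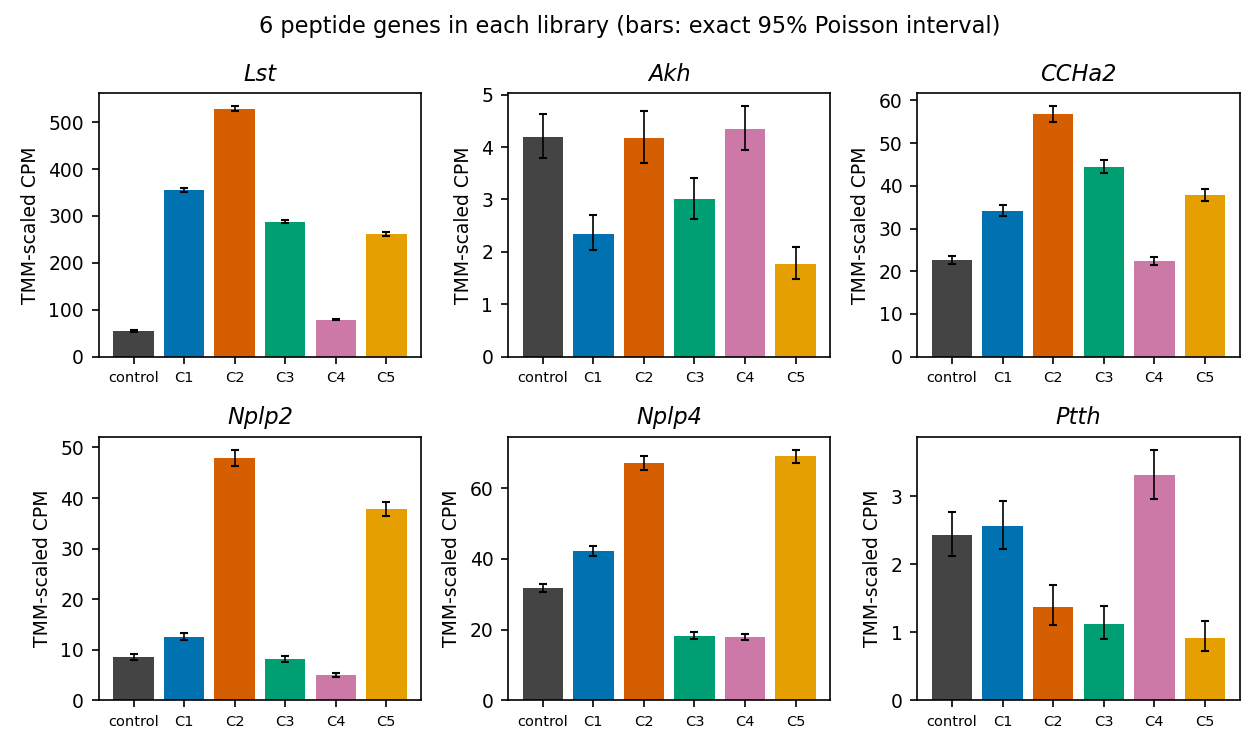
TMM-scaled CPM of Lst, Akh, CCHa2, Nplp2, Nplp4 and Ptth in each library, drawn from 0, with exact 95% Poisson intervals of the counts. Lst and CCHa2 are low in the control and C4, Nplp2 and Nplp4 are high in C2 and C5, and Ptth is high in the control, C1 and C4.

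Among the 5 peptides that act on the Malpighian tubules and hindgut, Dh44 ranged 2.86-fold between libraries and the others less than 2-fold. Leucokinin (Lk), capability (Capa), the calcitonin-like Dh31 and the corticotropin-releasing-factor-like Dh44 raise or restrain urine production, and ion transport peptide (ITP) favours water retention. None of these 5 genes passed the 2-fold threshold in any candidate. Their summed level was 65.8 to 70.2 CPM in the 6 libraries, most of it ITP. ITP (2R, 24537421 to 24558961) stood at 48.6 CPM (control), 54.3 (C1), 49.3 (C2), 57.2 (C3), 44.1 (C4) and 53.0 (C5), and its highest library exceeded its lowest by 1.30-fold. It shares 296 exon bases with CG4622 on the other strand. Dh44 (3R, 9638182 to 9650706) had the widest range of the 5. It stood at 7.14 CPM (control) and 10.5 (C4), against 4.45 (C1), 5.36 (C2), 3.69 (C3) and 3.65 (C5). With plain CPM, Dh44 was 2.12-fold below the control in C3 and 2.37-fold below in C5, and Capa 2.01-fold below in C3. With TMM factors from genes of the 4 libraries with little testis RNA, these were 2.14-fold, 2.14-fold and 2.03-fold below. Dh44 in C5 was also 2.01-fold below with DESeq2 size factors, so that these calls rest on the scaling. Lk, in the tables at 2.96 to 4.85 CPM, shares 582 bases of its exons with an antisense RNA, asRNA:CR44843, and reads of the pair may not have been separated.

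Among the 8 peptides of brain and gut, the 2-fold rule was met by 2 genes, in C3 and C4 alone under the main scaling. Lower calls made up 25% of the 8 in C3 and 12.5% in C4, against 25.3% and 3.67% of all measured genes. Mip (3L, 17344947 to 17349666) encodes the myoinhibitory peptides, also called allatostatin B. It stood at 8.47 CPM (control), 7.23 (C1), 6.20 (C2), 3.95 (C3), 2.78 (C4) and 4.96 (C5), with the control highest. The ratio was 2.14-fold below the control in C3 and 3.05-fold below in C4 (interval of the C4 ratio 0.285 to 0.377). With plain CPM, Mip was also 2.07-fold below the control in C5. CCHa1, a gut and brain peptide, had 74 counts in the control and 29 in C3, which was 2.10-fold lower after scaling. The others of this group were the short and long neuropeptide F genes sNPF and NPF, which bear on feeding, the tachykinin gene Tk, the allatostatin genes AstA and AstC, and Orcokinin. Orcokinin, the highest of the group per length, stood at 6.61 CPM (control), 5.86 (C1), 6.11 (C2), 7.46 (C3), 4.72 (C4) and 6.92 (C5). AstA stood at 4.21 to 8.39 CPM and Tk at 2.22 to 3.95. sNPF was highest in C1 at 4.90 CPM and stood at 2.54 to 2.98 in the other libraries. NPF was lowest in C5 at 0.613 CPM and stood at 0.916 to 1.37 elsewhere, and AstC was lowest in C4 at 1.18 CPM against 1.94 to 3.17 elsewhere. These stayed within 2-fold of the control, although NPF in C5 was 2.31-fold below it with plain CPM. With TMM factors from genes of the 4 libraries with little testis RNA, NPF in C5 was 2.09-fold below the control.

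The hormones of moulting and metamorphosis came next. Ecdysis-triggering hormone (ETH) from the Inka cells, eclosion hormone (Eh) and crustacean cardioactive peptide (CCAP) drive the shedding of the old cuticle. Burs and Pburs encode the subunits of bursicon, which hardens the new cuticle, and prothoracicotropic hormone (Ptth) triggers ecdysone synthesis in the prothoracic gland through the receptor Torso. ETH stood between 4.06 (C1) and 6.46 CPM (C3) and Eh between 0.882 and 1.12 CPM, all within 2-fold of the control. ETH shares 683 exon bases with asRNA:CR43257, which had 5.17 to 7.10 CPM.

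Ptth (2L, 575711 to 576896) stood at 2.42 CPM (control), 2.55 (C1) and 3.31 (C4), against 1.38 (C2), 1.12 (C3) and 0.920 (C5). C4 was highest and C5 lowest. It was 2.16-fold below the control in C3 (ratio interval 0.356 to 0.596) and 2.63-fold below in C5 (0.286 to 0.4998), and in C2 the ratio passed 2-fold with plain CPM (2.16-fold below). Ptth shares 24 exon bases with cold on the other strand. The receptor gene tor stood at 1.29 CPM in C2 to 1.89 in C1, and at 2.69 in C4. CCAP stood at 2.08 CPM (control), 2.95 (C4) and 0.827 to 1.25 in the other 4 libraries, and was 2.52-fold below the control in C5. With plain CPM it was also below by 2.11-fold in C1 and 2.38-fold in C2. With TMM factors from genes of the 4 libraries with little testis RNA, CCAP was below by 2.03-fold in C1 and 2.13-fold in C2. The bursicon subunits moved apart in C4, on few counts. Burs went from 68 counts in the control to 36 (2.02-fold lower), a call that other scalings put just under 2-fold (1.95-fold with TMM factors from genes of the 4 libraries with little testis RNA), and Pburs from 21 to 60 counts (2.67-fold higher, interval 1.60 to 4.62).

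The myotropic peptides act on muscle as well as on neurons. FMRFa, myosuppressin (Ms), drosulfakinin (Dsk), SIFamide (SIFa) and proctolin (Proc) all stayed within 2-fold of the control in every candidate. FMRFa (3.32 CPM), Ms (10.3), Dsk (2.04) and Proc (7.59) were highest in C2, and SIFa (2.80) was lowest there. The share of all measured genes with their highest level in C2 was not counted. Peptide genes outside this group were highest in C2 as well, namely Hug, Crz, Eh, Burs, Lst, CCHa2 and Nplp2. Muscle markers (12 genes) summed to 25605 CPM in C2 and to 2101 (C3) to 8988 (C5) in the other libraries. The neuron markers also summed highest in C2, at 712 CPM against 522 (C4) to 673 (C1) elsewhere. The part of muscle and neuron RNA in the levels of these peptides was not tested. SIFa shares 111 exon bases with Start1 on the other strand.

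Of 4 further central peptides, Hug, which restrains feeding, stood at 4.45 to 7.86 CPM and made no call. Corazonin (Crz), a stress and metabolic peptide, stood at 3.59 CPM in C2 and 1.42 to 1.82 in the others (C2 2.08-fold above the control). The C2 ratio was 1.69 with plain CPM and 1.89 with TMM factors from genes of the 4 libraries with little testis RNA. Pdf, the circadian clock peptide, stood at 2.83 CPM (control), 2.32 (C2), 2.06 (C4), 1.47 (C1), 1.40 (C3) and 1.36 (C5). It was 2.03-fold below the control in C3 and 2.08-fold below in C5. In C1 it was also below by 2.21-fold with plain CPM, 2.13-fold with those TMM factors and 2.00-fold with DESeq2 size factors. amn, a peptide-like gene named for its role in memory, had 9 to 29 counts per library and was called higher in C3 (29 against 14 counts, interval of the ratio 1.29 to 5.14). It overlaps Hers on the other strand by 140 bases.

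The neuropeptide-like precursors Nplp1 to Nplp4 were first named from peptides found in nervous tissue. Nplp2 (3L, 13356376 to 13357223) had, after Lst, the widest range. It stood at 8.46 CPM (control), 12.6 (C1), 47.9 (C2), 8.12 (C3), 5.00 (C4) and 37.7 (C5). C2 and C5 were far above the other 4 libraries, at 5.66-fold (5.24 to 6.13) and 4.46-fold (4.12 to 4.84) the control. Nplp4 (2L, 2008414 to 2009072) was also highest in these libraries. Its levels were 31.7 CPM (control), 42.2 (C1), 67.1 (C2), 18.3 (C3), 17.9 (C4) and 69.1 (C5).

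The Nplp4 ratio was 2.11-fold in C2 (2.02 to 2.22) and 2.18-fold in C5 (2.08 to 2.28). With plain CPM these ratios were 1.72 and 1.80, under the threshold, while Nplp2 stayed past it. With TMM factors from genes of the 4 libraries with little testis RNA, the Nplp4 ratios were 1.92 and 1.99. C2 and C5 also held the most fat body RNA (148869 and 150420 CPM summed over 7 markers) and the most salivary gland RNA (45840 and 37082 CPM over 9 markers, against 1310 to 20260 in the other 4), and the part of these in the Nplp2 and Nplp4 levels was not tested. Nplp1, which encodes several brain peptides, stood between 13.7 and 18.2 CPM.

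Calls were then counted over all 34 measured genes in each candidate. In C1, 1 gene (Lst, 2.94%) was higher and none lower, where 6.06% of all measured genes were higher and 21.5% lower. In C2, 5 genes (CCHa2, Crz, Lst, Nplp2 and Nplp4, 14.7%) were higher and none lower, with a background of 10.3% and 23.2%. In C3, 2 (Lst and amn, 5.88%) were higher and 4 (CCHa1, Mip, Pdf and Ptth, 11.8%) lower, with a background of 7.14% and 25.3%. In C4, 1 (Pburs, 2.94%) was higher and 2 (Burs and Mip, 5.88%) lower, with a background of 11.3% and 3.67%. In C5, 3 (Lst, Nplp2 and Nplp4, 8.82%) were higher and 4 (Akh, CCAP, Pdf and Ptth, 11.8%) lower, with a background of 5.65% and 22.2%. The 5 comparisons share the control library.

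All 10 testis markers were among the lower genes in C1, C2, C3 and C5, and none was lower in C4. The median log2 ratio over the 34 peptide genes was 0.05, 0.05, -0.04, -0.10 and 0.01 for C1 to C5. Over all measured genes it was 0.02, -0.05, -0.05, 0.09 and 0.00. The sign of the peptide median in C1, C2, C4 and C5 turned under other scalings. These scalings shifted the all-gene medians too. With plain CPM the peptide medians there were -0.143, -0.249, 0.0236 and -0.266, beside all-gene medians of -0.174, -0.351, 0.213 and -0.274.

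The control, which itself carried the driver, was then set against the 5 libraries with a UAS newt gene, C1 to C5, called transgenic here. The contrast used the spread among C1 to C5, which are different genotypes and not replicates. With edgeR's quasi-likelihood test and Benjamini-Hochberg adjustment, 0% of the 13750 genes tested were called, so 0 genes, and 168 had an unadjusted p under 0.05. None of the 34 peptide genes was called or had an unadjusted p under 0.05, and DESeq2 called 71 genes, none of them a peptide gene, with 1 peptide gene at an unadjusted p under 0.05. The smallest p was that of Lst, which was lower in the control by a log2 fold of -2.47 ± 1.10 (approximate SE, adjusted p = 0.991 in edgeR) and lower there than in 5 of 5 transgenic libraries. Without C4, the log2 fold of Lst was -2.64 ± 0.52. The control was then the only library with much testis RNA (1221 CPM against 3.08 to 9.39 in C1, C2, C3 and C5). Genotype and testis RNA cannot be told apart in that contrast. The control lay above all 5 transgenic libraries for 5 of the 34 peptide genes (Capa, Mip, Nplp1, Pdf and SIFa), against 5.31% of all genes. It lay below all 5 for 3 of the 34 (Dh31, Lk and Lst), against 12% of all genes. The control and C4 both lay above the remaining libraries for 3 of the 34 (Akh, CCAP and Dh44), against 28.8% of all genes. Both lay below them for 6 of the 34 (AstC, CCHa2, Dh31, Dsk, ITP and Lst), against 16.6%.

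Transcripts of the same gene did not always move together. The tables give estimated counts for each RefSeq transcript, and 39 of the 47 transcripts of the 18 peptide genes with several were matched to 1 annotated transcript by the length that their counts and RPKM imply, to within 0.5%, since the tables hold no exon coordinates. Dh44 and CCAP, whose transcripts have the same coding length, were chosen for description after their values were seen. Dh44 has a transcript of 2372 bases that stood at 3.19 CPM (control), 3.37 (C1), 2.74 (C2), 3.53 (C3), 3.77 (C4) and 2.99 (C5), nearly level. Its transcript of 1412 bases, which begins at an upstream exon (9638182 to 9638211) and has a shorter 3′ end, stood at 3.96, 1.07, 2.62, 0.153, 6.69 and 0.659 CPM in the same order. In these estimates, which share reads among isoforms, the range of Dh44 therefore lay in the shorter transcript. That form had 11.6 estimated counts in C3 against 364 in the control, 25.02-fold lower (interval of the log2 ratio -5.61 to -3.82). Fst, a gene on the other strand within the span of Dh44 that shares no exon base with it, stood at 240 CPM (control), 84.9 (C1), 353 (C2), 29.6 (C3), 243 (C4) and 153 (C5). Fst was lowest in the same library, but highest in C2, where the shorter Dh44 transcript was below the control. That transcript was highest in C4 and the control, the libraries with testis RNA. The part of Fst and of testis RNA in the Dh44 values was not tested.

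CCAP (3R, 22700582 to 22702084, minus strand) has transcripts of 714 and 1249 bases that differ in the length of the first exon, 181 or 716 bases. The short transcript stood at 0.667 to 1.05 CPM in all 6 libraries. The long transcript stood at 1.04 CPM (control), 2.06 (C4), 0.584 (C3) and 0.124 to 0.281 in C1, C2 and C5. Orcokinin (2R, 23946959 to 23949076, minus strand) encodes a brain form and a gut form of the precursor by alternative splicing. Its transcript of 1071 bases, which extends the first exon from 128 to 588 bases, had 72.2 counts (control) and 65.2 (C4), 7.0 (C1), 11.6 (C5) and 0 (C2 and C3). In C2 it was at least 17.4-fold lower than the control, and in C3 at least 19.8-fold, taking 3 counts per library as the floor. The other transcripts of Orcokinin, of 593 and 611 bases, stood at 2.19 to 3.27 and 1.42 to 4.80 CPM. In CCAP and Orcokinin the forms with a longer first exon were highest in the control and C4, the libraries with testis RNA, whose part in this was not tested. CG6972, which shares 78 exon bases with CCAP on the other strand, stood at 35.8 CPM (control), 77.3 (C4) and 187 (C3), its highest library.

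**Figure D4:**
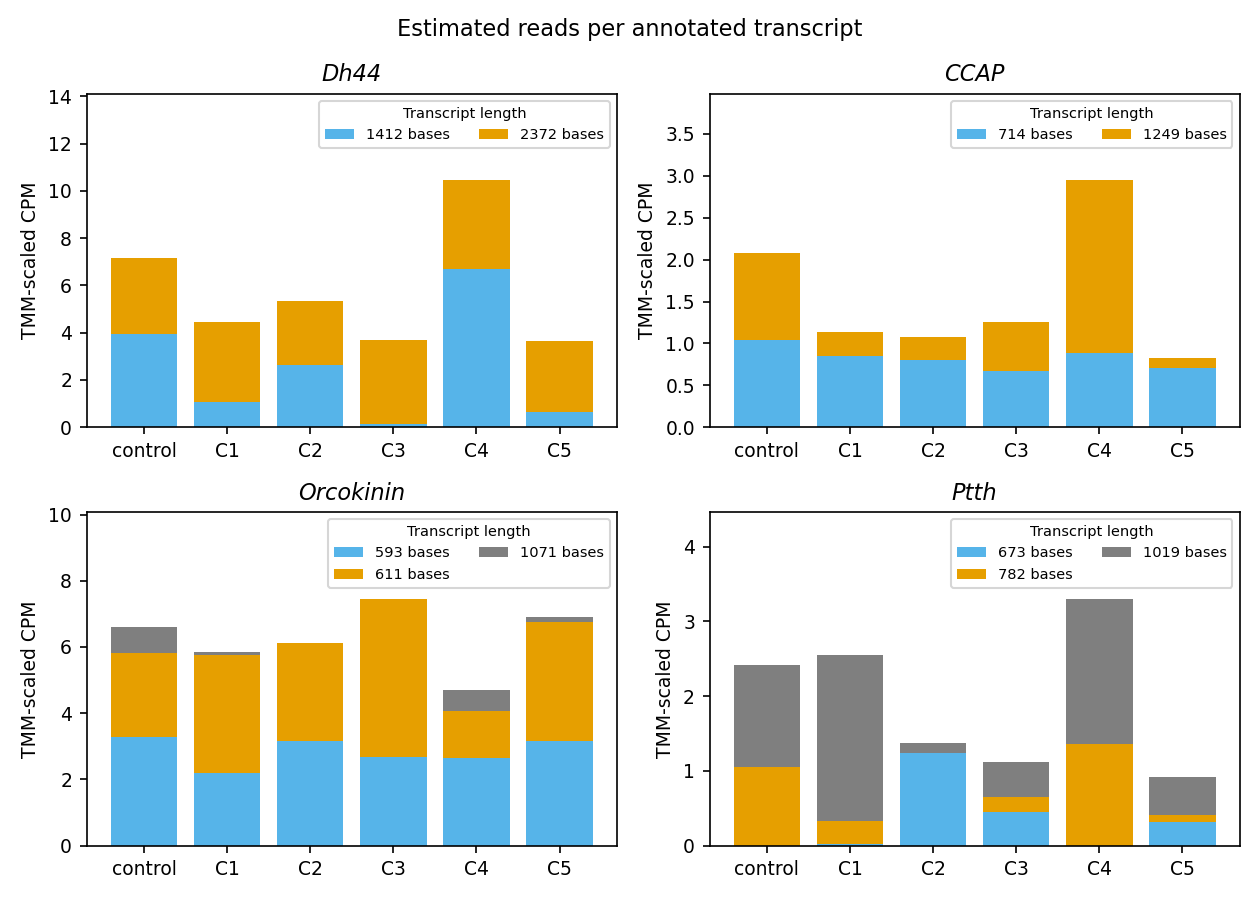
Estimated reads per annotated transcript of Dh44, CCAP, Orcokinin and Ptth, as stacked TMM-scaled CPM from 0 in each library, coloured by transcript length. The 2372-base transcript of Dh44 and the 714-base transcript of CCAP are nearly level, while the other form of each gene is highest in C4.

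The libraries differed in the make-up of Ptth transcripts as well as in their summed level. The transcript of 1019 bases, with a first exon of 383 bases (576514 to 576896) and a coding length of 654 bases, had 126 counts (control), 184 (C1), 8.8 (C2), 35.3 (C3), 192 (C4) and 38.3 (C5). The transcript of 673 bases, with a first exon of 37 bases and a coding length of 576 bases, had 0.1 counts (control), 1.9 (C1), 83.2 (C2), 34.2 (C3), 0.1 (C4) and 24.0 (C5). It thus made up 90.4% of the Ptth counts in C2, where it was at least 38.1-fold higher than the control taken at the floor of 3 counts. A transcript of 782 bases that retains the first intron had 97.2 counts (control) and 134 (C4), 26.0 (C1), 15.4 (C3), 6.7 (C5) and near 0 (C2). These are estimates from short stretches that the transcripts do not share, and the counts are small.

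The transcripts of Lst differed in their pattern. The main form of 1035 bases stood at 42.4 CPM (control), 331 (C1), 453 (C2), 250.5 (C3), 56.9 (C4) and 213 (C5). As for the whole gene, the control and C4 were low and the other 4 libraries high. The intron-retaining form of 2008 bases stood at 8.47 CPM (control), 16.9 (C1), 64.0 (C2), 25.8 (C3), 12.9 (C4) and 26.7 (C5), with C1 close to C4. The form of 1074 bases stood at 3.66 CPM (control), 7.80 (C1), 12.3 (C2), 11.7 (C3), 9.27 (C4) and 22.7 (C5), so that C4 lay above C1 and C5 was highest. The main form held between 71.9% (C4) and 93.1% (C1) of the Lst counts. For ITP the form of 3646 bases held 67.1% to 75.2% of the counts in every library, and for Nplp1 the form of 2044 bases 72.4% to 79.0%. The main Tk form of 1557 bases held 78.8% (C5) to 94.3% (C2 and C3). The Nplp2 transcripts of 452 bases have the same exons and received equal estimates, so they cannot be told apart.

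Receptors, processing enzymes and other peptide genes give the surroundings of these precursors. All 38 receptor genes were measured. For C1 to C5 in order, 1, 7, 1, 3 and 3 were higher than the control and 0, 5, 3, 2 and 0 lower, where 6.06%, 10.3%, 7.14%, 11.3% and 5.65% of all measured genes were higher and 21.5%, 23.2%, 25.3%, 3.67% and 22.2% lower. The median log2 ratios of the receptor genes were 0.14, -0.13, -0.07, -0.28 and 0.11. The widest ranges among receptors with a mean of at least 1 CPM were those of AkhR, PK2-R2, AstC-R1 and Pdfr. PK2-R2, a receptor for hugin and related pyrokinins, stood at 25.6 CPM (control), 24.3 (C1), 49.5 (C2), 8.49 (C3), 33.8 (C4) and 42.9 (C5). AstC-R1, a receptor of allatostatin C, was lowest in C2 (1.08 CPM) and highest in C3 (5.48), with 2.82 in the control. Pdfr, the receptor of Pdf, stood at 5.76 CPM in C2 and 1.501 to 2.48 elsewhere. Proc-R, the proctolin receptor, stood at 2.40 CPM (control) and 2.21 (C4), and was called higher in C1 (5.77), C2 (7.83) and C5 (4.97).

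A list of 20 genes was taken for peptide processing and dense core vesicles, although it also holds Bdp1, a gene outside this class. No call was made among them in C1, C2, C4 or C5, against the same shares of all genes. In C3, 2 were higher and 2 lower, where 7.14% of all genes were higher and 25.3% lower. The glutaminyl cyclase genes QC and isoQC were the higher ones, QC at 36.4 CPM against 9.76 in the control and isoQC at 77.9 against 31.2. Sytbeta, a synaptotagmin, was lower there at 4.90 CPM against 9.82, and dimm, the transcription factor of peptidergic cells, at 0.158 against 0.358. The prohormone convertase gene amon stood at 11.6 (C2) to 21.3 CPM (control), and Phm, whose enzyme begins the amidation of peptides, at 95.6 to 131 CPM. The carboxypeptidase gene svr stood at 127 CPM (C4), 192 (control) and 326 (C5), and Pal1, a later enzyme of amidation, at 105 CPM (C4), 151 (control) and 234 (C5). Of 7 genes listed as other peptide genes, among them NTL, which lies outside this class, 5 were in the tables and 4 measured. None passed the 2-fold rule. Gpb5, a glycoprotein hormone subunit, stood at 2.33 to 3.46 CPM and spab at 1.64 to 2.41 CPM.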

How the data were processed

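Per the labels, larvae were homogenised in TRIzol and libraries made with a stranded TruSeq kit without ribosomal RNA. Tools named in the submitters' processing notes are TopHat, Partek and bcl2fastq, with dm6 as the build. Whether counting used the strand is not stated there. For each library the authors deposited expected counts (estimated reads per RefSeq transcript, shared among isoforms and unscaled) and RPKM values computed by the authors for 34966 transcripts. Of these transcripts 34780 matched a gene of the Release 6 plus ISO1 MT RefSeq table, whose assembly dm6 is. Unmatched transcripts held 0.0754% to 0.130% of the counts. Exons came from the Ensembl annotation in dm6 coordinates.

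Expected counts were summed per gene, rounded, and scaled with TMM factors (edgeR 4.0.16, R 4.3.3), which for the control, then C1 to C5, were 1.09, 0.955, 0.890, 0.999, 1.19 and 0.904. Ratios used a floor of 3 counts per library. Scripts were tested on simulated data. The approximate SE is the absolute log2 fold divided by the square root of F (4 residual degrees of freedom). DESeq2 1.42.0 was the alternative test. The peptide genes, other lists and the naming rule were chosen with earlier results of these data known. The rule gives values in every library for genes with a maximum of at least 1 CPM and a 4-fold range, and for the 6 with the highest mean RPKM, together 6 genes. Every other gene given in full was chosen after its values were seen. Up to 4 genes were named per pathway list by range. Reads of 7 peptide genes whose exons overlap another gene may be mixed. Alternatives were other scalings and filters, RPKM, a 3-fold threshold, DESeq2 and leaving out each transgenic library.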

Additional observations from a re-analysis of the deposited data

How the results depend on the processing

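The scaling moved several results. Plain CPM moved the median log2 ratio of all genes to -0.17, -0.35, -0.19, 0.21 and -0.27 for C1 to C5. RPKM moved it to -0.17, -0.38, -0.23, 0.20 and -0.27. TMM factors from genes of the 4 libraries with little testis RNA moved it to -0.12, -0.19, -0.20, 0.14 and -0.13. With DESeq2 size factors it was -0.03, -0.08, -0.065, 0.12 and -0.03. Ratios under each scaling stand relative to these shifts. The peptide median stayed on the same side of the all-gene median under each scaling. It fell below it in C1, C3 and C5 with no filter, and in C1 and C3 with a minimum of 1 CPM. The peptide median became -0.143, -0.249, 0.0236 and -0.266 in C1, C2, C4 and C5 with plain CPM, -0.164, -0.281, 0.00869 and -0.269 with RPKM, -0.000439 in C1 and -0.0283 in C5 with DESeq2 size factors, -0.0903, -0.0912 and -0.119 in C1, C2 and C5 with TMM factors from genes of the 4 libraries with little testis RNA, and -0.0100 in C5 with no filter. Higher peptide genes in C2 numbered 3 with plain CPM, RPKM or those TMM factors and 2 at 3-fold. In C3 they numbered 1 with a minimum of 1 CPM or at 3-fold, and in C4 0 with either. In C5 they numbered 2 with plain CPM, RPKM, those TMM factors or at 3-fold. Lower peptide genes in C1 to C5 numbered 3, 2, 6, 1 and 7 with plain CPM and 3, 1, 6, 1 and 7 with RPKM. With those TMM factors they numbered 2, 1, 6, 1 and 6. With DESeq2 size factors there was 1 in C1, 1 in C4 and 5 in C5. With a minimum of 1 CPM there were 3 in C3 and 1 in C4. At 3-fold there were 0, 1 and 0 in C3, C4 and C5. The Lst calls in C1, C2, C3 and C5 and the Nplp2 calls in C2 and C5 held under each scaling.

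Leaving out each transgenic library gave 0 to 2254 genes and 0 to 1 peptide genes called, the highest without C4, and DESeq2 called 71 genes. Without C4, the control was the only library with much testis RNA. The cause was not tested. No paired analysis was possible because each genotype had 1 library. Counting precision limits Burs, Pburs, CCHa1, amn and the Ptth transcripts, and Nplp3 could not be compared at this depth.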
